A study of Mus musculus with 4 samples.

Results

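The S100 family of small calcium-binding proteins was followed through the immune cells of healing mouse skin wounds. Its 8 members were taken by symbol from the feature tables, namely S100a1, S100a4, S100a6, S100a8, S100a9, S100a10, S100a11 and S100a13. They are 8 of 18 rows whose symbol begins with S100, among 31053 genes in all. The other 10 rows, one of which (S100pbp) encodes a binding partner and not an S100 protein, were not followed. S100a8 and S100a9 had 3840737 and 5129899 UMIs in the cells analysed, and S100a1, the least counted member, had 2293. A UMI is a molecular tag that counts 1 captured transcript.

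Live CD45+ cells, which are leukocytes, were sorted from 3 mm excisional wounds in the dorsal skin of 8-week-old male C57BL6/J mice and sequenced in droplets from the 3′ end of the transcript. The mice were Angptl4+/+ or Angptl4-/-, and their wounds were taken 1 or 5 days post wounding (dpw). Angptl4 encodes angiopoietin-like 4, a secreted regulator of lipoprotein lipase. Each of the 4 conditions was 1 library, and the number of mice behind it is not given in the sources used here. The study's methods name a different supplier for each genotype and do not call them littermates. With no replicates there was no test and no error between animals. Every interval below covers counting error only, at 95%. A comparison is called a rise or a fall where the ratio was at least 2-fold (1 on the log2 scale) and the pair of libraries held at least 100 UMIs of the gene.

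S100 proteins bind calcium through EF-hand motifs and then attach to partner proteins. S100A8 and S100A9 form calprotectin, the dominant protein of the neutrophil cytosol, which sequesters zinc and manganese from microbes and, once released, acts on TLR4 and other receptors as an alarm signal. S100A10 is held by annexin A2, S100A11 binds annexin A1, and S100A4 binds non-muscle myosin and is known for its role in cell movement. S100A6 binds annexins and other calcium-dependent partners. S100A13 takes part in the release of proteins that lack a signal peptide, and S100A1 is best known from heart muscle.

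The depth was 26981596 to 32962595 deposited UMIs per library. Of 20069 barcodes, 19827 cells passed the filters, with 4738 to 5346 in each library and a median of 3736 to 4976 UMIs per cell. The pairs of libraries shared 5 to 15 cell barcodes. Angptl4 had 47 and 78 UMIs in the Angptl4+/+ libraries at 1 and 5 dpw and 0 in both Angptl4-/- libraries. Cells were clustered with every S100 gene left out of the variable genes, and the 14 clusters were named from marker lists that hold no S100 gene. The result was 13781 neutrophil-like, 3680 macrophage-like, 561 monocyte-like and 670 dendritic cell-like cells. Lymphocytes gave 55 B cell-like and 517 NK cell/T cell-like cells, while 3 small clusters stayed unnamed. Each class held its own marker list, with a lowest summed level of 2309 CPM, counts scaled to 1000000 UMIs, for the dendritic cell list. The fibroblast and keratinocyte lists each summed to 6.10 CPM or less over all cells, whereas the erythroid list reached 602 CPM in the Angptl4-/- library at 5 dpw and at most 3.86 CPM in the other libraries. Among macrophage-like and monocyte-like cells, 450 cells formed a shallow sub-cluster (median 1239 UMIs) that neutrophil genes led and of which 12% were called doublets, droplets with more than 1 cell. They are called mixed cells here. For S100a8 in macrophage-like cells the comparison of days is given with and without them. Other values include them unless stated.

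The 8 genes lie on chromosome 3 (GRCm38) in 2 stretches. S100a1 (90511034 to 90514392, minus strand) and S100a13 (90514435 to 90524581, plus strand) stand head to head. S100a4 (90603771 to 90606045), S100a6 (90612882 to 90624181) and S100a8 (90668978 to 90670035) follow on the plus strand, and S100a9 (90692632 to 90695721) lies on the minus strand. S100a11 (93520488 to 93526287) and S100a10 (93555080 to 93564643), both on the plus strand, stand farther along. Each has 3 exons in its longest annotated form, except S100a13 with 4. S100a4 overlaps the annotated transcript Gm42674 on the same strand, so its count is uncertain to that extent.

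The sequences before the starts of S100a8 and S100a9 are shown because these genes were by far the most counted members and lie on opposite strands. They are the RefSeq sequences before the start site (GRCm38.p6), 250 bases for S100a9 and 157 for S100a8, from whose window the 93 bases inside its annotated gene are left out. Capitals mark a match to TTGCNNAA, a C/EBP core motif, in S100a9 and to GAGGAA, a PU.1 core motif read on the other strand, in S100a8.
S100a8, chr3:90668821-90668977, plus strand: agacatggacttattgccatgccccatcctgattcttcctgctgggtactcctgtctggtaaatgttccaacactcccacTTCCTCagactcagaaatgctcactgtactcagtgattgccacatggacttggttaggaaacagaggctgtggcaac
S100a9, chr3:90695722-90695971, minus strand: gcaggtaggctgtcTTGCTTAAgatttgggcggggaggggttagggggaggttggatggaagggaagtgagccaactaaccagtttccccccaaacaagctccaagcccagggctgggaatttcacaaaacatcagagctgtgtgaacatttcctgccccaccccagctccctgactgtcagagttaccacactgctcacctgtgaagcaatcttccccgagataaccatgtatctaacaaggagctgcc

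Both strands of the 250-base windows of 7 members were searched, as S100a10 had no entry. TTGCNNAA had 1 match, in S100a9, and 9.56% of 32851 promoters held it. GAGGAA was found in S100a8, with 2 matches of which 1 lies in the left-out bases, and in S100a11 with 1 match, against 23.3% of all promoters. TGANTCA, the AP-1 core motif, had 2 matches in S100a11 and 0 in the other 6 members searched, against 6.75% of promoters. A match is a string of letters and not a binding site.

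S100a8 and S100a9, the calprotectin pair, were the neutrophil genes of the family. Values over the 4 libraries are given from here on in the order Angptl4+/+ at 1 dpw, Angptl4+/+ at 5 dpw, Angptl4-/- at 1 dpw and Angptl4-/- at 5 dpw. In neutrophil-like cells S100a8 had 70958, 36013, 82657 and 40807 CPM. S100a9 had 98423, 57159, 103659 and 53284 CPM. Together they took 16.9, 9.32, 18.6 and 9.41% of all UMIs of these cells, so the 1 dpw libraries of both genotypes were high and the 5 dpw libraries low. The median neutrophil-like cell spent 16.2, 7.62, 17.4 and 7.63% of its UMIs on the pair, and the range within a library was wide. At 5 dpw the 5th and 95th percentiles of that share were 0.347 and 20.5% in Angptl4+/+ cells and 0.649 and 20.7% in Angptl4-/- cells. At 1 dpw they were 2.62 and 26.4%, and 2.86 and 29.3%. When each cell was thinned to 1000 UMIs, 96.4 to 99.6% of neutrophil-like cells still had a UMI of S100a8.

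S100a6 and S100a11 were also highest in neutrophil-like cells as a share of UMIs. The median depth was 3865 UMIs in neutrophil-like, 7407 in macrophage-like and 13549 in dendritic cell-like cells. The order of classes is therefore one of shares and not of UMIs per cell. S100a6 had 7194, 4505, 7967 and 5179 CPM there. S100a11 had 5324, 4793, 5671 and 4539 CPM. For S100a6 the order of classes was neutrophil-like, macrophage-like (2883 to 4287 CPM), monocyte-like (2573 to 3105), dendritic cell-like (2279 to 2681) and NK cell/T cell-like (1933 to 2458). Only the neutrophil-like range stood clear of the next one, and the other neighbours overlapped. For S100a11 dendritic cell-like cells came second among the named classes, with 1523 to 1939 CPM, and their range overlapped that of macrophage-like cells (718 to 1644). Monocyte-like (731 to 1110 CPM) and NK cell/T cell-like cells (687 to 968) followed, each overlapping its neighbour. The unnamed cluster led by Dmkn and Vcan had 1619 to 2097 CPM of S100a11 and 3583 to 3988 CPM of S100a6.

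The other 4 members were nearly absent from neutrophil-like cells or lower there. S100a4 had 7.58, 26.1, 5.51 and 30.7 CPM in neutrophil-like cells and 2839, 2049, 2607 and 2509 CPM in macrophage-like cells. Dendritic cell-like cells had the most, at 3392, 4394, 3168 and 3285 CPM. The ranges of macrophage-like and monocyte-like cells (2398 to 2667 CPM) overlapped, and NK cell/T cell-like cells had 1307 to 1614 CPM. B cell-like cells had 0 UMIs of S100a4 in both 1 dpw libraries, with 5 and 2 cells, and 11.5 and 8.93 CPM at 5 dpw. In every library the macrophage-like level was above the neutrophil-like level, by a log2 ratio of 6.30 to 8.89.

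S100a10, the annexin A2 partner, had the same gap. It had 5.80, 20.6, 5.84 and 23.4 CPM in neutrophil-like cells against 1845, 1047, 1860 and 1586 CPM in macrophage-like cells, a log2 ratio of 5.67 to 8.32. NK cell/T cell-like cells had 1248, 2070, 1343 and 1730 CPM, a range that overlapped that of macrophage-like cells. Dendritic cell-like cells had 1503, 611, 1099 and 637 CPM, and monocyte-like cells 525 to 722 CPM.

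S100a13 and S100a1 were low in all classes. Among the named classes S100a13 was highest in NK cell/T cell-like cells, at 235 to 288 CPM. This was above the ranges of monocyte-like (165 to 213), macrophage-like (152 to 174) and dendritic cell-like cells (134 to 167), of which neighbours overlapped. The unnamed clusters led by Dmkn and Vcan (181 to 240 CPM) and by Retnla and Gfra2 (162 to 242) overlapped the NK cell/T cell-like range. Neutrophil-like cells had 44.8 to 50.2 CPM. S100a1 had 33.8 to 49.6 CPM in monocyte-like cells and 27.2 to 55.4 CPM in macrophage-like cells, which overlapped. Dendritic cell-like cells had 16.5 to 23.5 CPM, NK cell/T cell-like cells 6.92 to 17.5 CPM on 2 to 41 UMIs, and neutrophil-like cells 0.873 to 2.69 CPM on 15 to 33 UMIs. The family thus split evenly, with 4 members higher in neutrophil-like and 4 higher in macrophage-like cells in each of the 4 libraries. These levels are UMIs of transcript 3′ ends, and they set classes side by side for 1 gene, not genes against each other.

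**Figure D1:**
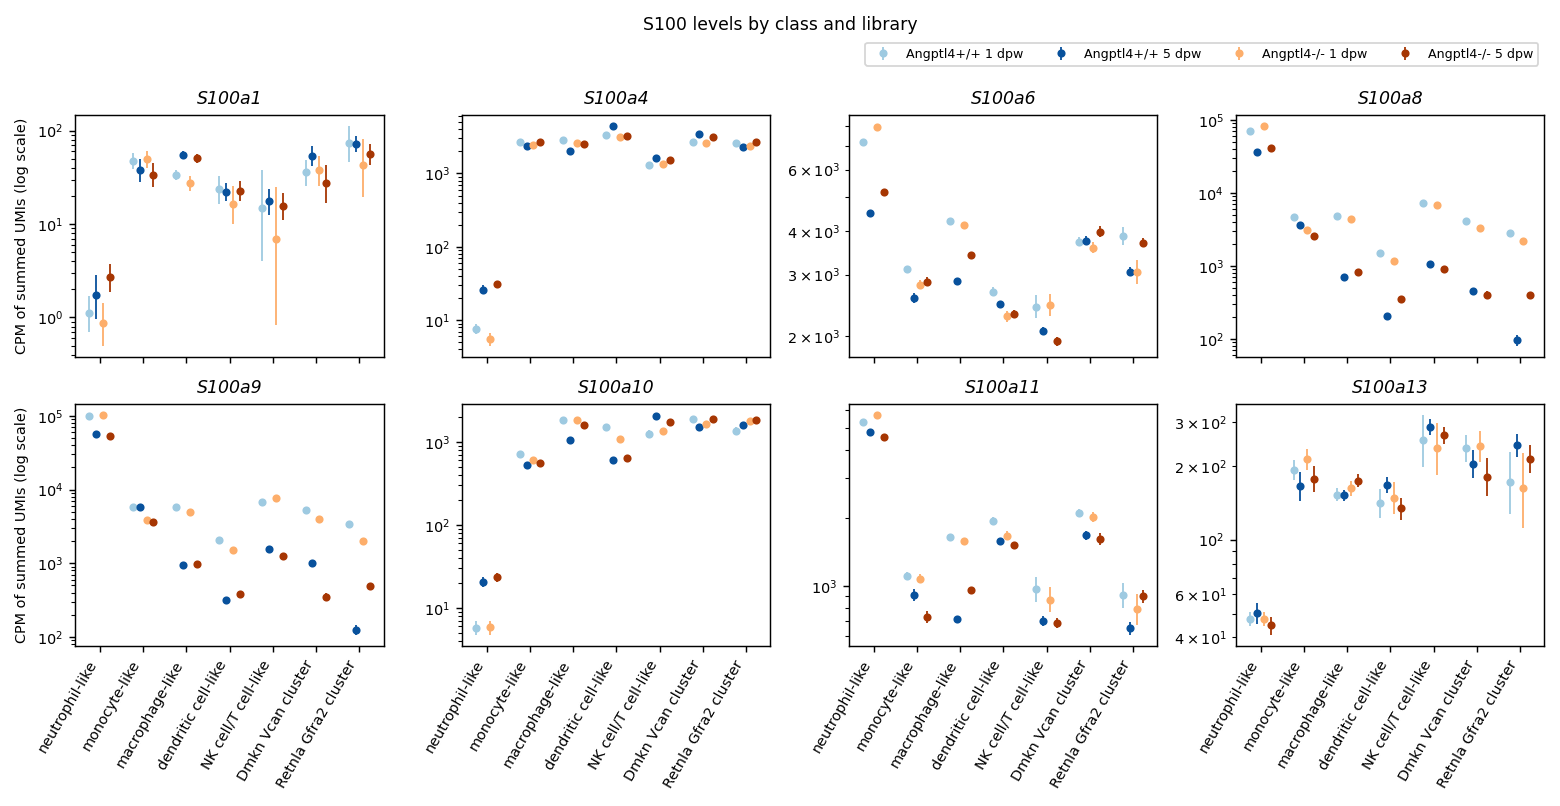
Level of each S100 member in 5 named classes and 2 unnamed clusters of each library, in CPM of summed UMIs on a log axis, with exact Poisson 95% intervals of counting error. S100a8, S100a9, S100a6 and S100a11 stand highest in neutrophil-like cells, whereas S100a4 and S100a10 reach only 5.51 to 30.7 CPM there.

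The 5 neutrophil-like clusters did not share the pair evenly. Cluster 0 (3860 cells, led by Ly6g, Lrg1 and Nlrp12) had the most S100a8, at 93828, 45363, 110370 and 50882 CPM. Cluster 1 (3681 cells, led by Csf1, Tnf and Egr3) had the least, at 42545, 27256, 48250 and 31137 CPM. The clusters of interferon-induced genes, of F3 and Il1a, and of the stefin genes lay between them in every library. S100a9 was likewise lowest in cluster 1, at 59500, 44755, 60017 and 38093 CPM. It was highest in cluster 0 at 1 dpw and in Angptl4-/- cells at 5 dpw, with 126599, 135259 and 64891 CPM. In Angptl4+/+ cells at 5 dpw cluster 0 (67686 CPM) and the stefin cluster (68108 CPM) were about level.

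S100a11 followed the same order at both ends, from 6115 to 6837 CPM in cluster 0 to 2915 to 3528 CPM in cluster 1. S100a6 was highest in cluster 0 in the 1 dpw libraries (8844 and 10216 CPM) and lowest in the F3 and Il1a cluster in all 4 (3708 to 6207 CPM). S100a4 and S100a10 were highest in cluster 1, the cluster with least S100a8. S100a4 had 14.0, 46.8, 9.67 and 59.2 CPM there, and S100a10 had 12.8, 37.2, 10.5 and 51.1 CPM. A finer sub-cluster of 599 neutrophil-like cells, led by the ribosomal gene Rpl36al and by Polr2f and Snrpg, had the lowest S100a8 of the neutrophil sub-clusters, at 11049 to 23611 CPM.

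**Figure D2:**
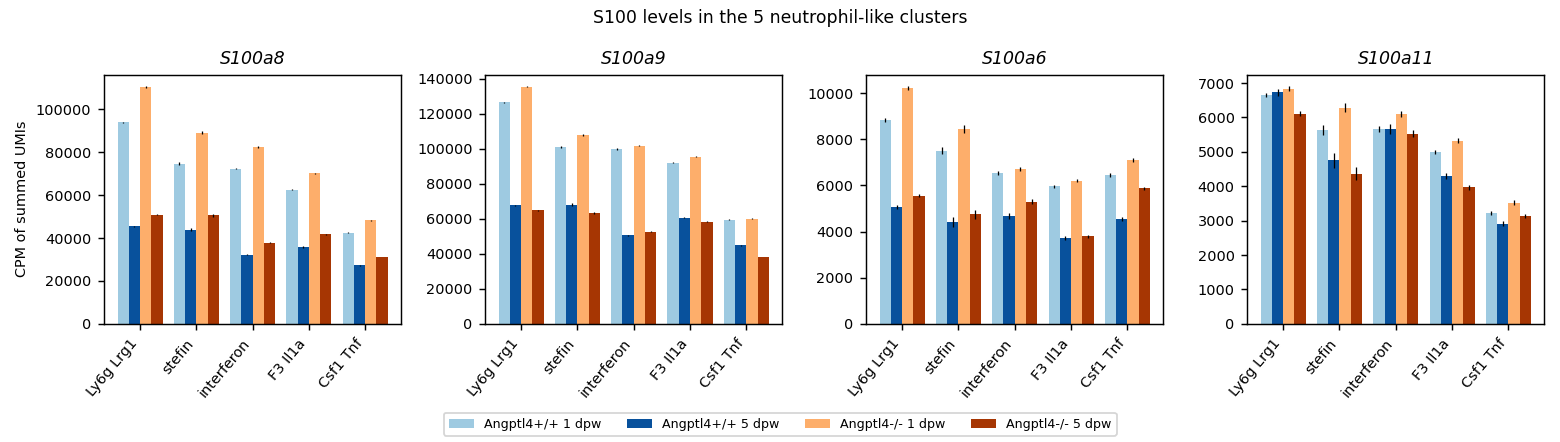
Levels of S100 members in the 5 neutrophil-like clusters, in CPM of summed UMIs with exact Poisson 95% intervals, 1 bar for each library. S100a8 runs from 93828 CPM in cluster 0 to 42545 CPM in cluster 1 in Angptl4+/+ cells at 1 dpw, and cluster 1 is lowest in each library.

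Inside the other classes the members varied by subset. S100a4 had 508 to 777 CPM in the NK cell sub-cluster (led by Klrb1c and Ncr1) of the 5 dpw libraries, and 3246 to 3430 CPM in a sub-cluster led by Cd163l1 and Trdc, genes of gamma delta T cells. Among dendritic cell-like cells it had 249 CPM in the Xcr1 and Clec9a sub-cluster, which had 27 cells in the Angptl4-/- library at 5 dpw, against 5332 to 6027 CPM in a sub-cluster led by Tnfrsf4 and Tesc. A macrophage sub-cluster led by Fcrls, Gas6 and C1qa had 1284 to 1910 CPM of S100a4. S100a10 was lowest, at 96.0 to 344 CPM, in the monocyte sub-cluster led by Ace and Treml4, genes of non-classical monocytes. That sub-cluster of 143 cells, 15.4% of them called doublets, had 5839 to 12316 CPM of S100a8.

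S100a8 and S100a9 outside neutrophils were set beside other neutrophil genes because of free RNA. Free RNA is transcripts that leak from lysed cells into every droplet. The levels are class sums, and few cells held most of the pair's UMIs in most classes, as given below. They do not measure RNA spread over every droplet, so they cannot tell free RNA from such cells. A level was taken as a percentage of the neutrophil-like level in the same library and set beside the same percentage for the 10 genes of the neutrophil list, among them Csf3r, Cxcr2 and Mmp9. S100a8 in macrophage-like cells stood at 6.83, 1.97, 5.31 and 2.04% of the neutrophil-like level, and the list's median at 8.20, 3.12, 7.06 and 2.73%. Without the mixed cells S100a8 stood at 5.75, 1.75, 4.58 and 2.02%, against list medians of 7.16, 2.71, 6.32 and 2.66%. In monocyte-like cells S100a8 stood at 6.53, 10.3, 3.78 and 6.32% against list medians of 7.09, 8.77, 5.47 and 7.56%. The NK cell/T cell-like class should lack neutrophil genes, and S100a8 there stood at 10.4, 2.98, 8.32 and 2.21% against 12.2, 2.20, 8.13 and 2.66%. Dendritic cell-like cells had 2.13, 0.576, 1.41 and 0.855% against 2.61, 1.14, 1.72 and 0.916%. The pair stood under the median of the list in most of these. In the 32 combinations of gene, class and library, neither gene stood above every gene of the list. That says little where 1 list gene was itself high. Il1r2 stood at 14.9 to 45.0% in dendritic cell-like cells, and Lrg1 at 35.3 and 37.1% in monocyte-like cells at 1 dpw. Of the 32 combinations, 5 stood above the list's median, 2 of monocyte-like and 3 of NK cell/T cell-like cells. Some smaller groups stood higher. In the Cd163l1 and Trdc sub-cluster at 5 dpw, both genes stood above all 10 list genes in Angptl4+/+ wounds (8.58 and 8.74%). They stood above 6 in Angptl4-/- wounds. In B cell-like cells at 5 dpw, S100a9 (3.57%) stood above all 10 in Angptl4-/- wounds. The other B cell-like values at 5 dpw stood above 9. Both genes in the Ace and Treml4 sub-cluster stood above 9 in Angptl4+/+ wounds at 5 dpw and above 2 to 8 in other libraries. Shares of cells with a UMI, after thinning, were 14.5 to 42.5% of macrophage-like and 15.0 to 41.7% of NK cell/T cell-like cells for S100a8, and the median depths of these classes were 7407 and 6982 UMIs. The ranges overlapped.

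**Figure D3:**
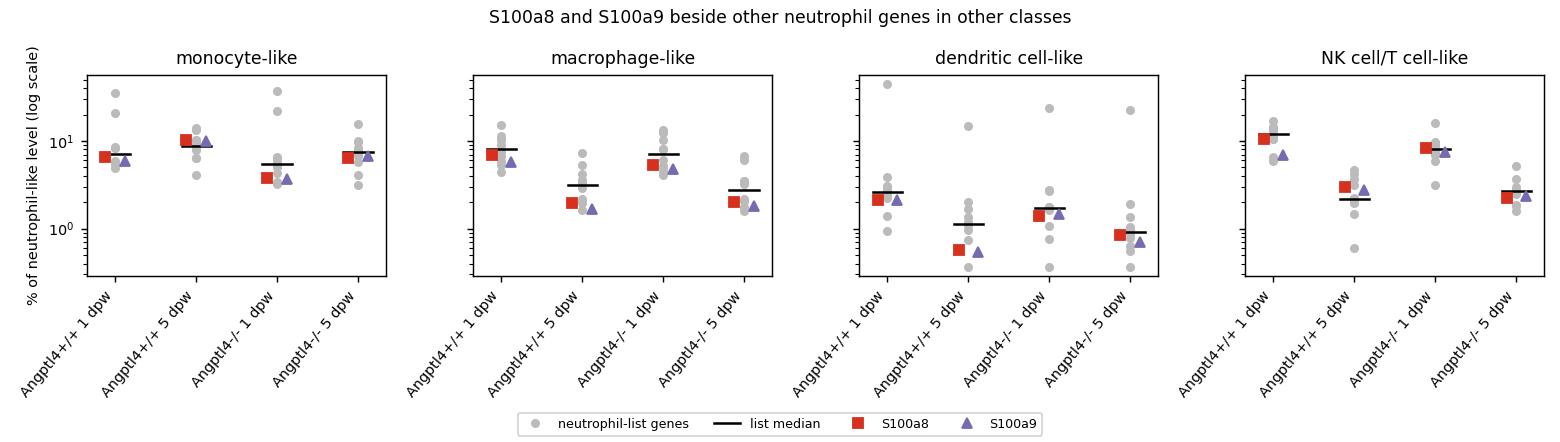
S100a8 and S100a9 outside neutrophils as a percentage of their level in neutrophil-like cells of the same library, for 4 classes and 4 libraries, with the genes of the neutrophil list beside them. S100a8 and S100a9 fall within the spread of the list in all 4 classes, from 0.546 to 10.4%. That spread is wide, and its highest gene, Il1r2 in dendritic cell-like cells, reaches 45.0%. All levels are class sums and do not show how the UMIs were spread over cells. B cell-like cells and sub-clusters, some of which stood above every list gene, are not among the 4 classes.

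The pair's UMIs outside neutrophils sat mostly in few cells, though less so in dendritic cell-like cells at 5 dpw. Among macrophage-like cells, 113, 52, 79 and 25 cells had at least 1% of their UMIs from S100a8 and S100a9, a limit set after the values were seen. They were 10.8, 3.86, 10.6 and 4.67% of the class and held 93.6, 86.8, 93.6 and 81.9% of its S100a8 and S100a9 UMIs. The remaining macrophage-like cells had 433, 106, 360 and 168 CPM of S100a8. The limit is on the pair itself, so it caps the level left in them. The median macrophage-like cell had 0.0802, 0.0150, 0.0853 and 0.0205% of its UMIs from the pair. In the cells over the limit the neutrophil list summed to 12947, 5210, 11382 and 4302 CPM, against 442, 284, 384 and 271 CPM in the rest. The macrophage list summed to 13123 to 18173 CPM in them and 19095 to 23441 CPM in the rest. Called doublets made up 31.0, 88.5, 35.4 and 40.0% of the cells over the limit and 0.640 to 2.35% of the rest. Neutrophil markers, macrophage markers and doublet calls thus came together in this set of cells. Sums over the set do not show whether single cells held both lists. Neutrophil-like cells themselves had 3951 to 8726 CPM of the macrophage list. The part of doublets in the level of S100a8 was not tested. The doublet score was given the counts of all genes, S100a8 and S100a9 among them. The calls were therefore not independent of the limit that chose these cells. Of the NK cell/T cell-like cells 6, 12, 6 and 14 held 84.6 to 97.4% of the pair's UMIs. The 24, 20, 12 and 16 monocyte-like cells over the limit held 89.6 to 96.3%. Of the dendritic cell-like cells 5, 5, 3 and 2 held 91.3, 49.0, 87.3 and 55.3%.

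The share of S100a8 within the pair was compared between classes. S100a8 made up 41.9, 38.7, 44.4 and 43.4% of the pair's UMIs in neutrophil-like cells, and the widest exact binomial interval was 38.5 to 38.8%. It made up 45.8, 42.6, 46.7 and 46.0% in macrophage-like cells, above the neutrophil-like share in every library. In monocyte-like cells the shares were 44.1, 39.0, 44.9 and 41.5%. Among these classes, dendritic cell-like and NK cell/T cell-like cells, the share farthest from the neutrophil-like one was 52.1% (50.5 to 53.6), in the 35 NK cell/T cell-like cells of the first library. Smaller groups also differed from the neutrophil-like share, with 31.0% (27.2 to 35.0) in B cell-like cells of the second library and 31.4 and 53.3% in the cluster led by Dmkn and Vcan at 5 dpw.

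The comparison of 5 with 1 dpw asked how the family moved as inflammation passed into repair. In neutrophil-like cells the log2 ratio of 5 to 1 dpw in Angptl4+/+ wounds was -0.98 (-0.98 to -0.97) for S100a8, -0.78 for S100a9, -0.68 for S100a6 and -0.15 for S100a11. In Angptl4-/- wounds it was -1.02 (-1.02 to -1.01) for S100a8, which passed the 2-fold limit, -0.96 for S100a9, -0.62 for S100a6 and -0.32 for S100a11. The values of S100a8 in both genotypes thus lay on either side of the limit with almost the same size, and in Angptl4-/- cells S100a8 had -0.97 as a mean of CPM over cells and -0.96 after thinning. S100a8, S100a9 and S100a6 were lower at 5 dpw within each of the 5 neutrophil-like clusters in both genotypes. Within clusters the Angptl4+/+ ratio of S100a8 ran from -1.16 to -0.64 and the Angptl4-/- ratio from -1.12 to -0.63.

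S100a4 and S100a10 went the other way from a very low level. S100a4 rose in neutrophil-like cells by a log2 ratio of 1.78 (1.48 to 2.09) in Angptl4+/+ wounds, on 149 UMIs at 1 dpw and 225 at 5 dpw. It rose by 2.48 (2.16 to 2.81) in Angptl4-/- wounds, on 101 and 376 UMIs. S100a10 rose by 1.83 (1.48 to 2.18) and 2.0 (1.68 to 2.34). These rises depended on the clusters: with classes set from the marker UMIs of each cell, S100a4 had 0.06 and 0.53 and S100a10 -0.06 and 0.18. Levels in neutrophil-like cells were also taken as a percentage of those in macrophage-like cells without the mixed cells. At 5 dpw S100a4 in neutrophil-like cells was 1.27 and 1.22% of that macrophage-like level and S100a10 1.96 and 1.48%, while the median of the macrophage list there was 0.449 and 0.278%. The list was spread widely. Spp1, one of its genes, stood at 282 and 331% at 5 dpw and at 129 and 194% at 1 dpw. At 1 dpw the list's median was 0.220 and 0.136%, S100a4 stood at 0.267 and 0.212% and S100a10 at 0.310% in both genotypes. The part of macrophage RNA in these rises was not tested.

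Of 7 members with enough UMIs, 2 rose and 0 fell in Angptl4+/+ neutrophil-like cells, where 30.4% of 6602 genes rose and 1.86% fell (32.3% past 2-fold in all). In Angptl4-/- cells 2 rose and 1 fell, where 32.8% of 6668 genes rose and 1.81% fell (34.6% in all). The counts of rises were near the background. The median gene moved by 0.65 and 0.68 on this scale, and the median member by -0.15 and -0.32. Taken relative to the median gene, the ratios of 5 of the 7 members in Angptl4+/+ cells and 6 of the 7 in Angptl4-/- cells were past 2-fold, beside 16.4 and 17.0% of all genes on the same scale. S100a4 was then at 1.13 and 1.79 and S100a10 at 1.18 and 1.32. The neutrophil list itself went from 32341 to 14872 CPM in Angptl4+/+ cells and from 31805 to 15145 CPM in Angptl4-/- cells.

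**Figure D4:**
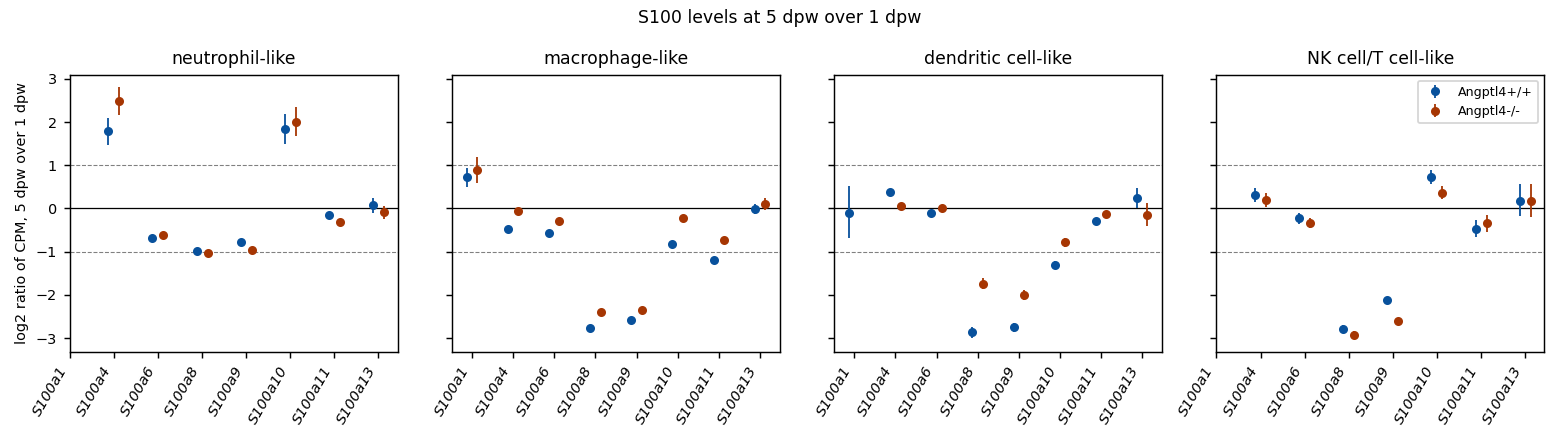
Log2 ratio of 5 to 1 dpw for each member with at least 100 UMIs in 4 classes, for both genotypes (dashed lines at 2-fold), with exact conditional binomial 95% intervals of counting error. S100a8 and S100a9 are far below 0 in macrophage-like, dendritic cell-like and NK cell/T cell-like cells, and S100a4 and S100a10 are above 1 in neutrophil-like cells. The ratios are of class sums, and outside neutrophils a minority of cells held most of the pair's UMIs at 1 dpw.

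In macrophage-like cells 3 of 8 members fell in Angptl4+/+ wounds, where 4.22% of 8512 genes fell and 10.4% passed 2-fold in all. In Angptl4-/- wounds 2 of 8 fell, where 3.95% of 7462 genes fell and 8.74% passed in all. S100a8 had 4849, 711, 4389 and 832 CPM, a log2 ratio of -2.77 and -2.40, and S100a9 had 5739, 959, 5017 and 978 CPM, a log2 ratio of -2.58 and -2.36. Without the mixed cells S100a8 had 4079, 629, 3788 and 822 CPM, and the ratios were -2.70 and -2.20. The ratio with called doublets left out was -4.43 in Angptl4+/+ cells, from 3039 to 141 CPM, and -2.65 in Angptl4-/- cells, from 2784 to 442 CPM. S100a9 then had -4.20 and -2.69. Called doublets were 31.0, 88.5, 35.4 and 40.0% of the cells with at least 1% of their UMIs from the pair, so the removal was uneven. It was also not independent of the pair, whose counts went into the doublet score. The neutrophil list in macrophage-like cells summed to 2165, 509, 1936 and 480 CPM and so fell alongside, and the part of neutrophil RNA was not tested. With free RNA subtracted, 1 member in Angptl4+/+ wounds and 0 in Angptl4-/- wounds passed 2-fold. The share of all genes was not computed under this setting. No ratio past 2-fold before came under the limit here, so the lower counts do not show smaller falls.

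S100a11 was the third to fall in Angptl4+/+ macrophage-like cells. It had 1644, 718, 1583 and 957 CPM, with log2 ratios of -1.19 (-1.24 to -1.15) and -0.73 (-0.78 to -0.68). Its ratio in Angptl4+/+ cells was -1.15 and -1.05 in the separate macrophage-like clusters, and -1.05 with every cell that had 2 or more neutrophil genes left out. S100a10 came next, at -0.82 (-0.85 to -0.78) for the Angptl4+/+ pair and -0.23 (-0.27 to -0.19) for the Angptl4-/- pair. S100a6 had -0.57 and -0.28, S100a4 -0.47 and -0.06, and S100a13 -0.01 and 0.10. S100a1 alone had ratios well above 0, at 0.72 (0.50 to 0.94) and 0.89 (0.59 to 1.20).

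Dendritic cell-like cells had 3 of 8 members fall in Angptl4+/+ wounds, against 5.09% of genes that fell and 6.76% past 2-fold in all. In Angptl4-/- wounds 2 of 7 fell, against 2.67% and 3.66%. S100a8 and S100a9 were among them in both genotypes, with log2 ratios of -2.87 and -2.75 where Angptl4 was intact and -1.74 and -2.0 where it was lost. With cells of 2 or more neutrophil genes left out, the Angptl4-/- ratios were -0.87 and -0.82. Outside the 5, 5, 3 and 2 cells with at least 1% of their UMIs from the pair, S100a8 had 145, 100, 139 and 145 CPM. S100a9 had 185, 169, 214 and 184 CPM there. The falls of the pair in class sums thus lay mostly in those few cells. The neutrophil list in this class summed to 1229, 353, 594 and 400.2 CPM, and its part was not tested. S100a10 was the third member, with -1.30 (-1.38 to -1.22) in Angptl4+/+ wounds and -0.79 (-0.89 to -0.68) in Angptl4-/- wounds. Within the sub-cluster of Ccl22 and Ccr7, genes of migratory dendritic cells, S100a10 had 1615, 587, 1305 and 520.3 CPM. So it was lower at 5 dpw inside that subset too. S100a4 in dendritic cell-like cells had a ratio of 0.37 in Angptl4+/+ and 0.05 in Angptl4-/- wounds.

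The NK cell/T cell-like class had only 35 and 36 cells in the 1 dpw libraries. S100a8 and S100a9 were its 2 of 7 members past 2-fold, against 17.5 and 13.2% of genes. Their log2 ratios were -2.78 and -2.12 in the wild type and -2.93 and -2.61 in the knockout. Without the called doublets S100a8 had -3.93 and -3.91 and S100a9 -3.14 and -3.68. This class had 0 called doublets in the 1 dpw libraries and 13 and 5 in the 5 dpw libraries. Their removal thus lowered the 5 dpw levels only, for S100a8 from 1074 to 484 CPM and from 901 to 459 CPM. Outside the 6, 12, 6 and 14 cells with at least 1% of their UMIs from the pair, S100a8 had 242, 174, 232 and 115 CPM. S100a9 had 273, 260, 241 and 119 CPM there. With all cells kept, the neutrophil list fell with S100a8 and S100a9, from 3438 to 375 CPM and from 2205 to 387 CPM, and its part was not tested. S100a10 had 0.73 (0.57 to 0.89) and 0.36 (0.21 to 0.52). In monocyte-like cells 0 of 8 members passed 2-fold in either genotype, against 3.91 and 3.19% of genes, and the ratios ran from -0.56 to 0.12. S100a8 had -0.33 and -0.28 there and S100a9 -0.02 and -0.08, while the neutrophil list summed to 2301, 1460, 1599 and 1154 CPM. These ratios are of class sums, most of which lay in the 24, 20, 12 and 16 cells with at least 1% of their UMIs from the pair. Outside those cells S100a8 had 613, 148, 452 and 191 CPM, lower at 5 dpw in both genotypes. S100a9 had 239, 268, 361 and 181 CPM there, lower at 5 dpw in Angptl4-/- cells only.

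The comparison of Angptl4-/- with Angptl4+/+ wounds asked whether the loss of Angptl4 touched the family. It shares its libraries with the comparison of days. With all cells kept, no member passed 2-fold at 1 or 5 dpw in the 5 named classes other than B cell-like cells. With called doublets left out, S100a8 and S100a9 passed in macrophage-like cells at 5 dpw and in monocyte-like cells at both days, and S100a8 in dendritic cell-like cells at 5 dpw. Counts of both genes went into the doublet score, so these ratios rest on a filter that was not independent of them. The background was 0.959 and 1.03% of genes in neutrophil-like cells at 1 and 5 dpw, 0.735 and 1.25% in macrophage-like, 0.701 and 0.858% in monocyte-like, 1.48 and 1.48% in dendritic cell-like cells. For the NK cell/T cell-like class it was 4.45 and 1.29%. Without called doublets the background was 1.43% in macrophage-like cells at 5 dpw, 0.71 and 1.67% in monocyte-like cells and 1.63% in dendritic cell-like cells at 5 dpw.

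Smaller differences lay beyond counting error. S100a8 in neutrophil-like cells was higher in the Angptl4-/- library by a log2 ratio of 0.22 (0.22 to 0.22) at 1 dpw and 0.18 (0.17 to 0.19) at 5 dpw, and higher in 5 of 5 clusters on both days. S100a6 had 0.15 and 0.20, also in 5 of 5 clusters. S100a9 had 0.07 and -0.10, so the S100a8 share of the pair was 44.4 against 41.9% at 1 dpw and 43.4 against 38.7% at 5 dpw. Within clusters the share ran from 42.4 to 45.3% against 40.5 to 42.6% at 1 dpw, and from 41.7 to 45.0% against 37.1 to 40.1% at 5 dpw. With 1 library each, a difference of this size cannot be told apart from one between animals or preparations.

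In macrophage-like cells at 5 dpw the median ratio of the 8 members was 0.24, beside -0.02 for all genes. S100a10 had the largest, with 1586 against 1047 CPM, a log2 ratio of 0.60 (0.56 to 0.64), and 0.59 and 0.65 in the separate clusters. S100a11 had 0.41 (0.36 to 0.46), S100a4 0.29 and S100a6 0.25. S100a8 had 0.23, or 0.39 without the mixed cells. At 1 dpw S100a10, S100a11, S100a4 and S100a6 were at 0.01, -0.05, -0.12 and -0.04, and S100a8 was at -0.14. With called doublets left out, S100a8 and S100a9 passed 2-fold at 5 dpw, at 1.65 and 1.31. S100a8 then had 141 CPM in Angptl4+/+ and 442 CPM in Angptl4-/- cells, with the neutrophil list at 253 and 324 CPM.

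In class sums of monocyte-like cells S100a8 and S100a9 went the other way at both days, at -0.57 and -0.61 at 1 dpw and -0.52 and -0.67 at 5 dpw. The neutrophil list was at 1599 against 2301 CPM and at 1154 against 1460 CPM. At least 1% of UMIs came from the pair in 12 against 24 cells at 1 dpw and 16 against 20 at 5 dpw. Outside these cells S100a8 had 452 against 613 CPM at 1 dpw and 191 against 148 CPM at 5 dpw. S100a9 had 361 against 239 CPM and 181 against 268 CPM. The direction of each gene there thus differed between the days. Called doublets were 16 Angptl4+/+ and 9 Angptl4-/- cells of this class at 1 dpw, and 6 and 8 at 5 dpw. With called doublets left out both genes passed 2-fold, S100a8 at -1.55 and -1.08 and S100a9 at -1.64 and -1.56. S100a8 then had 917 against 2677 CPM at 1 dpw and 1105 against 2338 CPM at 5 dpw, with the neutrophil list at 850.45 against 1204 CPM and at 749 against 1187 CPM, and its part was not tested. S100a8 in dendritic cell-like cells at 5 dpw had 0.75 (0.61 to 0.89), on 349 against 207 CPM. With called doublets left out it passed at 1.10 (0.95 to 1.25), on 350.4 against 164 CPM, with the neutrophil list at 399 against 308 CPM. The cells left out were 1 Angptl4-/- and 11 Angptl4+/+ cells, so this removal too was uneven, and its part was not tested.

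The small remaining groups at 5 dpw did hold members past 2-fold between genotypes. In the unnamed cluster led by Retnla and Gfra2, with 100 Angptl4+/+ and 59 Angptl4-/- cells, 2 of 8 members passed against 1.67% of genes, S100a8 with 96.7 and 403 CPM and S100a9 with 125 and 493 CPM. In the cluster led by Dmkn and Vcan S100a9 had 1009 and 351 CPM, the opposite order, against 2.03% of genes. B cell-like cells had 4542 and 1902 CPM of S100a9 on 21 and 27 cells, against 0.99% of genes. The neutrophil list in these groups was at 107 and 250 CPM, 611 and 432 CPM, and 530.2 and 170 CPM, so it moved in the same direction as the members, and its part was not tested.

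**Figure D5:**
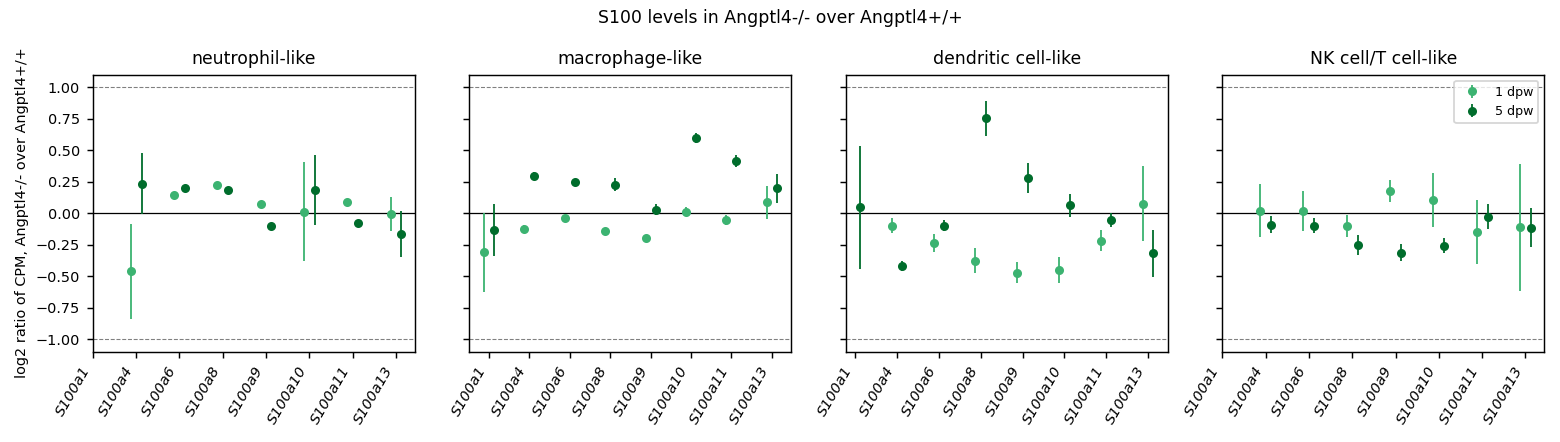
Log2 ratio of Angptl4-/- to Angptl4+/+ for each member with at least 100 UMIs in 4 classes, at 1 and at 5 dpw (dashed lines at 2-fold), with exact conditional binomial 95% intervals of counting error. With called doublets kept, no member reaches 1 or -1, and S100a10 in macrophage-like cells at 5 dpw stands at 0.60.

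The partners of the family were followed as lists. Their counts stand beside the 30.4 and 32.8% of all genes that rose and the 1.86 and 1.81% that fell in neutrophil-like cells, and beside the 4.22 and 3.95% that fell in macrophage-like cells (10.4 and 8.74% past 2-fold in all). In neutrophil-like cells 0 of 7 counted receptor genes passed 2-fold between days in Angptl4+/+ wounds, and 1 rose (Ager, at 1.36) and 1 fell in Angptl4-/- wounds. Genes outside the 3 most counted of each list are named here after their values were seen. Cd14, the co-receptor that hands ligands to TLR4, had 6102, 4773, 6231 and 6896 CPM, and Bsg, a receptor for S100A9, 201, 274, 170.2 and 254 CPM. Cd69 had 144, 77.2, 142 and 63.0 CPM and was the gene that fell in Angptl4-/- cells. In macrophage-like cells 1 of 7 fell in each genotype. It was Cd14 in Angptl4+/+ cells (2056 to 757 CPM) and Cd69 in Angptl4-/- cells. Both genes were nevertheless lower at 5 dpw in both genotypes. Without the mixed cells, Cd14 went from 2084 to 1045 CPM in Angptl4-/- cells. Cd69 then went from 62.8 to 33.1 CPM in Angptl4+/+ and from 72.0 to 35.2 CPM in Angptl4-/- cells.

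The annexins past 2-fold in neutrophil-like cells showed no common direction. The list's median log2 ratio of 5 to 1 dpw was -0.41 and -0.34 there, beside 0.65 and 0.68 for all genes. In macrophage-like cells it was -0.18 and -0.04, beside 0.14 and 0.08. In neutrophil-like cells 1 of 7 rose and 1 fell in Angptl4+/+ wounds, and 1 rose and 2 fell in Angptl4-/- wounds. The gene that rose was Anxa6 (1.45 and 2.79), and Anxa3 (-1.07) fell in Angptl4-/- cells. Anxa1, the S100A11 partner, had 309, 148, 355 and 174 CPM and fell in both genotypes. Anxa2, the S100A10 partner, had 933, 895, 915 and 878 CPM in neutrophil-like cells, so it was well counted where S100a10 was at 5.80 to 23.4 CPM. In dendritic cell-like cells Anxa2 had 1693, 909.6, 1492 and 860.2 CPM, lower at 5 dpw in both genotypes as S100a10 was. Anxa5 had 21.0, 15.8, 23.8 and 14.8 CPM in neutrophil-like cells. In macrophage-like cells 0 of 8 annexins passed 2-fold in either genotype.

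Of the 6 phagocyte oxidase genes, whose enzyme makes superoxide and takes arachidonic acid from calprotectin, 0 rose and 1 (Cybb, at -1.19 and -1.41) fell in neutrophil-like cells of each genotype, and 0 passed 2-fold in macrophage-like cells. In the neutrophil-like class Cyba had 689, 814, 719 and 759 CPM and Rac2 610, 449, 632 and 376 CPM. Of the 5 cytoskeletal partners 0 passed in either class. Actb, the most counted, had 14731, 9168, 14379 and 8920 CPM in neutrophil-like cells, Iqgap1 had 1449, 1068, 1543 and 1245 CPM, and Tpm3 had 588, 512, 608 and 543 CPM.

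Of the regulators of myeloid genes, 2 of 5 rose in neutrophil-like cells of each genotype and 0 fell, near the 30.4 and 32.8% of all genes that rose. They were Cebpd (1.48 and 1.03) and Cebpe (1.38 and 1.28). The most counted were Cebpb, with 4031, 4658, 3884 and 4865 CPM, Spi1, which encodes PU.1, with 476, 662, 496 and 621 CPM, and Stat3, with 218, 295, 197 and 323 CPM. None of these passed 2-fold. In macrophage-like cells 1 of 6 regulators, Cebpa (1.67 and 1.44), rose and 1, Cebpe (-2.03 and -1.09), fell in each genotype. Between genotypes 1 annexin, Anxa6, was lower in Angptl4-/- neutrophil-like cells at 1 dpw, and otherwise 0 genes of the 5 lists passed 2-fold in neutrophil-like or macrophage-like cells at either day.

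The genes whose levels ran most like each member were sought over 30 units, each a class in a library with at least 20 cells, among 7089 genes. The units share libraries, and genes of the neutrophil list were counted in all classes, so the correlations of log2(CPM + 1) are a description. For S100a8 the most like genes were Acod1 (Pearson r of 0.97), Mmp9 (0.96) and Rdh12 (0.94), and for S100a9 they were Acod1 (0.96), Mmp9 (0.96) and Rdh12 (0.95). Acod1 encodes the enzyme that makes itaconate, and Mmp9 a gelatinase stored in neutrophil granules. S100a8 and S100a9 correlated at 0.99 with each other, S100a4 and S100a1 at 0.93, S100a4 and S100a13 at 0.90 and S100a6 and S100a11 at 0.71. S100a4 and S100a8 had -0.62.

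For S100a11 the most like genes were Antxr2 (0.93), Arpc3 (0.93), a subunit of the actin-branching complex, and the cytokine gene Il1b (0.92). For S100a6 they were Ccrl2 (0.95), a chemerin receptor, Abhd5 (0.94) and Fxyd5 (0.94). S100a10 ran with Fkbp1a (0.97), Atp5g3 (0.97) and Psmc1 (0.96), and S100a4 with Sulf2 (0.97), Magt1 (0.97) and H1f0 (0.97). S100a1 was most like Mcub (0.96), Sulf2 (0.95) and Lcmt1 (0.95). S100a13 was most like Raph1 (0.92), Papss1 (0.92) and Ccr2 (0.92), the chemokine receptor of inflammatory monocytes.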

How the data were processed

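Sorted CD45+ cells were profiled as 4 libraries with the Chromium Single Cell 3′ V3 kit. The authors aligned the reads to mm10 (Cell Ranger 3.1.0). The values deposited are raw UMI counts, per gene and barcode, of filtered barcodes, and their own normalization and integration used Seurat (3.0), per the submitters' processing notes. Here barcodes with at least 200 genes and at most 10% mitochondrial UMIs were kept. Libraries were integrated with anchors (Seurat 5.3.0, R 4.3.3) on 2000 variable genes and 30 dimensions, without S100 genes, and clustered with the Louvain method at resolution 0.5. Sub-clusters used resolution 0.6. Scrublet (scanpy 1.11.5) called 7 doublets at its automatic threshold, so the cells with the highest 4% of scores in each library were marked, 689 passing cells in all, and kept. Unlike the clustering, Scrublet was given the S100 genes.

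UMIs were summed per class and library and divided by the class total (CPM). Levels have exact Poisson and ratios exact conditional binomial 95% intervals (Python 3.11.15, numpy 2.4.6, scipy 1.17.1, pandas 2.3.3, matplotlib 3.10.9). Thinning to 1000 UMIs left out 86 to 157 cells per library. The named genes were all 8 members, the 3 most counted genes of each partner list and the 3 genes most like each member, of which 1 partner gene is not reported here. Of the partner lists, Cd36, Mcam, Anxa4 and Cebpa in neutrophil-like and Ager and Mcam in macrophage-like cells had under 100 UMIs and were not compared. The ratio script was tested on simulated data. The members and lists were chosen with earlier results of these data known. Positions are from GENCODE and promoter sequences from RefSeq.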

Additional observations from a re-analysis of the deposited data

Results flagged for a closer look

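S100a4 in monocyte-like cells moved in opposite directions between days in the 2 genotypes. Its log2 ratio of 5 to 1 dpw was -0.15 in Angptl4+/+ wounds (2667 to 2398 CPM) and 0.12 in Angptl4-/- wounds (2442 to 2662 CPM). The difference was not tested, since each value rests on 1 library per day.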

How the results depend on the processing

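Over 3 classes (neutrophil-like, dendritic cell-like and macrophage-like cells) 15 of 90 member ratios were past 2-fold. Of 162 values of these under alternatives, 154 were past it in the same direction. Some alternatives could not move some ratios. Removal of the mixed cells left neutrophil-like and dendritic cell-like cells untouched. Removal of cells with 2 or more neutrophil genes was not applied to neutrophil-like cells. The 4 ratios past 2-fold in NK cell/T cell-like cells, and those of monocyte-like cells, were recomputed with called doublets left out, at 1.5-fold and relative to the median gene, and not under the others. The count of members past 2-fold between days was 2 in Angptl4+/+ and 3 in Angptl4-/- neutrophil-like cells, and 3 and 2 in macrophage-like cells. With classes from the marker UMIs of each cell, the neutrophil-like counts were 0 and 1, S100a10 in Angptl4+/+ neutrophil-like cells turned from 1.83 to -0.062, and 2 combinations of S100a8 or S100a9 with a class and library stood above every neutrophil gene instead of 0. Thinning to 1000 UMIs gave 1 in Angptl4+/+ neutrophil-like cells, as S100a10 then had too few UMIs. Subtracting free RNA gave 1 and 0 in macrophage-like cells, though no ratio past 2-fold before came under the limit by it. The share of all genes was not computed with classes from marker UMIs, after thinning or with free RNA subtracted. Counts of members under these settings thus have no background. A threshold of 1.5-fold gave 5 and 5 in neutrophil-like and 5 and 4 in macrophage-like cells, beside 58.5, 59.8, 28.7 and 25.4% of all genes. Ratios relative to the median of all genes, chosen after seeing the data like the removal of the mixed cells, gave 5 and 6 in neutrophil-like cells, beside 16.4 and 17.0%. Between genotypes, macrophage-like cells at 5 dpw had 0 members past 2-fold. They had 2 with called doublets left out, 2 with classes from marker UMIs and 1 at 1.5-fold, beside 5.59% of genes. Leaving out called doublets also gave 2 in monocyte-like cells at both days and 1 in dendritic cell-like cells at 5 dpw instead of 0. The cause was not tested. No paired analysis was possible because each condition was 1 library. Depth limits S100a1 most, with 2 to 41 UMIs per library in NK cell/T cell-like cells.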

Other observations

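S100a1 was highest in the unnamed cluster led by Retnla and Gfra2 in 3 of 4 libraries, at 73.7, 72.6 and 55.7 CPM on 21, 102 and 62 UMIs. It had 42.8 CPM on 9 UMIs in Angptl4-/- wounds at 1 dpw. These counts are low, and the order of classes was not set against counting error.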
